A study of Mus musculus with 12 samples.

Results

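The genes described here are 40 mouse genes of the NRF2 pathway and the antioxidant enzymes. They were chosen by name and not by a cut on a measured value, though with earlier results of these data known. Each was found by its symbol in a table of read counts for 39017 genes, no symbol had more than 1 gene identifier, and all 40 were among the 19370 genes with enough reads to be tested. The counts came from RNA sequencing of 12 bulk mammary tumours. The tumours grew from NIC cells, a mouse ErbB2-positive breast cancer line without p66ShcA, which is the longest protein made from Shc1. p66High cells were engineered to express p66ShcA constitutively at a high level, and p66Low cells were their counterpart without that expression. Parental cells had not been passaged in mice. Aggressive cells had gone through successive rounds of growth in the mammary fat pad and had then been taken back into culture. The 4 groups, each of 3 tumours, were p66High parental, p66High aggressive, p66Low parental and p66Low aggressive. In every group 250000 cells in PBS and matrigel were placed into the fourth fat pad, and the hosts were female FVB/N mice aged 8 to 12 weeks. The sources used here do not say which promoter drove p66ShcA or whether a line is 1 clone, and each line stands for its group in all 3 tumours.

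NRF2, the protein of Nfe2l2, is a transcription factor that is held in the cytoplasm and marked for degradation by KEAP1. Oxidants and electrophiles modify cysteines of KEAP1, NRF2 then accumulates in the nucleus, and it binds antioxidant response elements in the promoters of genes that make glutathione, thioredoxin, NADPH and detoxifying enzymes. The superoxide dismutases turn superoxide into hydrogen peroxide, which catalase, the glutathione peroxidases and the peroxiredoxins remove. p66ShcA is known for a mitochondrial pool that promotes the formation of hydrogen peroxide and for restraining FOXO factors, which drive Sod2 and Cat. The question asked of these data is whether the level of p66ShcA, or the passage through mice, goes with a different level of these genes.

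Total counts ran from 17.4 to 76.1 M (mega-counts) per tumour. Levels are given as CPM, counts scaled by TMM to a library of 1 M, and differences as log2 ratios with their standard error (SE) and the Benjamini-Hochberg adjusted p of edgeR's quasi-likelihood test over all tested genes, with 0.05 as the threshold for a gene to pass. Shc1 was at 65, 59 and 69.4 CPM in p66Low parental, 271, 234 and 223 in p66High parental, 61, 65.3 and 69.9 in p66Low aggressive and 237, 246 and 774 CPM in p66High aggressive tumours. All 6 p66High tumours were above all 6 p66Low ones, although gene counts do not separate the p66 protein from the shorter Shc proteins. The 10 markers of mammary tumour epithelium summed to between 2330 and 3560 CPM in every tumour. The labels give each tumour a number with the letter L or R and do not say whether a number stands for 1 animal. The p-values thus cover spread between tumours, and how far that is spread between animals is not known. The number 173 stands in the labels of p66High parental tumours 1 and 2 and the number 185 in those of p66High aggressive tumours 1 and 2, with the letters L and R. The 9 lymph node stroma markers summed to 57.6, 172 and 246 CPM in p66High parental tumour 3 and p66Low aggressive tumours 1 and 2, called the lymph node libraries below, and to between 0.141 and 3.65 CPM in the other 9. In bulk tissue, fewer cells of a type and less RNA per cell cannot be told apart.

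Most of these genes kept a similar level in all 4 groups. The highest group mean was less than 1.5 times the lowest for 26 of the 40, against 50.6% of all tested genes. It was at least 2 times the lowest for 6 of the 40, against 28.2% of all tested genes. The median ratio was 1.35, against 1.49 over all tested genes. Of the 40, 14 passed the test in at least 1 of 5 comparisons and 26 in none. The share of all tested genes that passed in at least 1 was not computed, so this count is not read as high or low. Between p66High and p66Low parental tumours 2 of 40 passed, against 8.08% of all tested genes, with 1 higher (3.98% of all genes) and 1 lower (4.10%), and the median log2 difference was -0.12 against -0.01 over all genes. Between p66High and p66Low aggressive tumours 9 of 40 passed against 21.0% of all genes, 3 higher (8.92% of all genes) and 6 lower (12.1%), with medians of -0.13 and 0.02. Between aggressive and parental tumours 5 of 40 passed in p66Low cells, where 16.6% of all genes did, with 2 higher (9.60%) and 3 lower (7.03%). In p66High cells 2 of 40 passed, where 5.94% of all genes did, and both were lower (2.82%). The medians of the 40 were -0.10 in both selections, and those of all genes -0.02 and 0. For the interaction, which asks whether selection changed a gene by a different amount in p66High and p66Low cells, 4 of 40 passed against 12.4% of all genes, 1 higher (4.37%) and 3 lower (7.99%). The share of these genes that passed was thus near the share of all genes in each comparison, so the list as a whole did not stand out by its count. The comparisons share samples, since each group enters 2 of the first 4 comparisons, and their values are given side by side only.

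**Figure D1:**
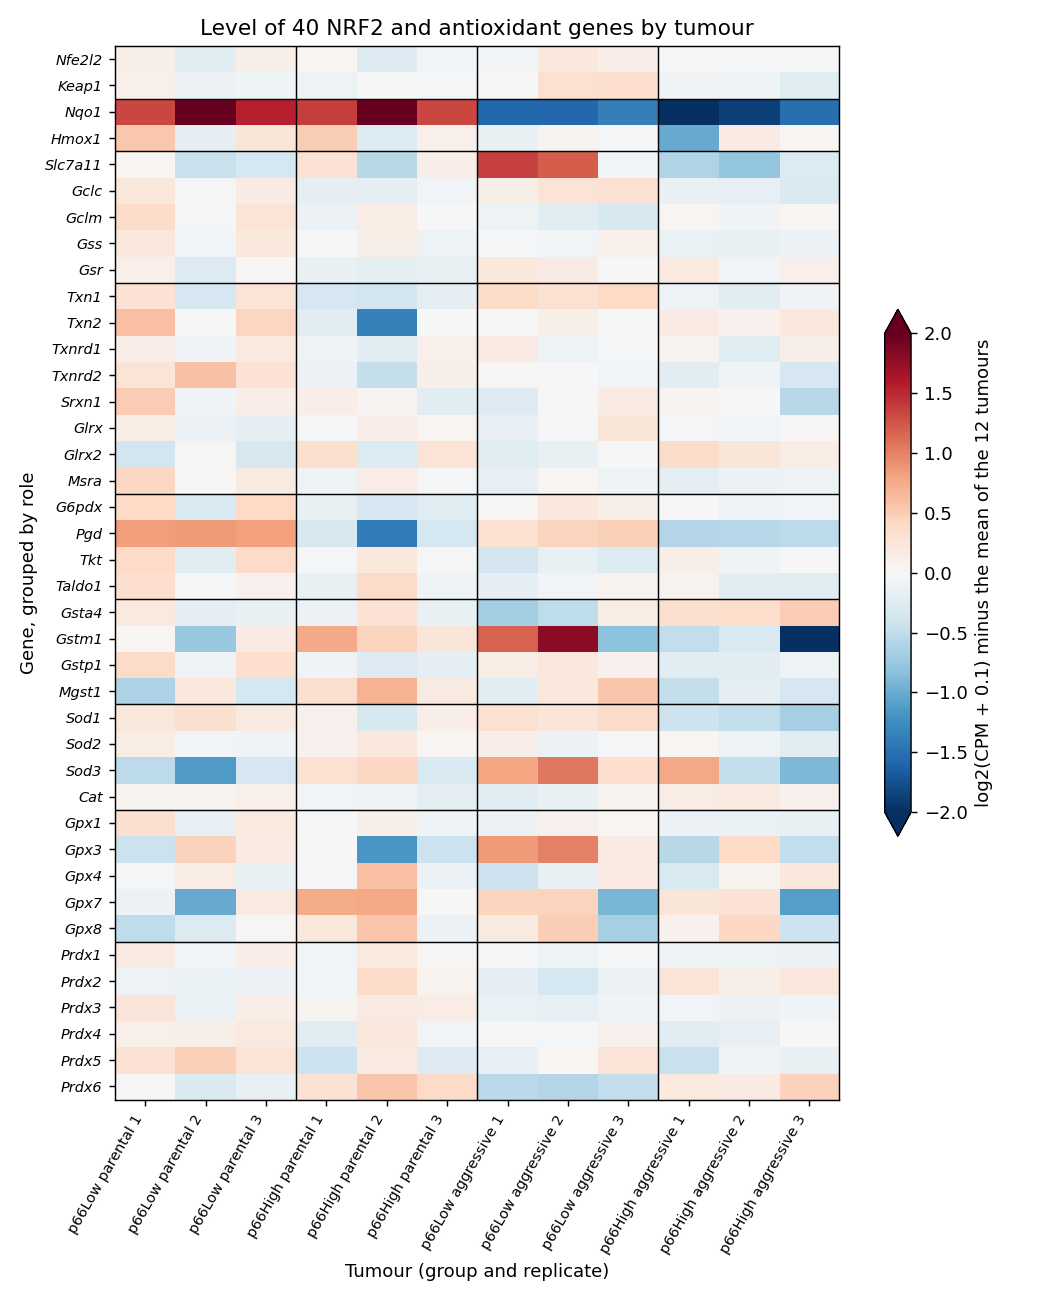
Level of each of the 40 genes (rows, grouped by role) in each of the 12 tumours (columns), as log2(CPM + 0.1) minus the gene's mean over the tumours, with blue for lower and red for higher. The Nqo1 row is blue in all 6 aggressive tumours, and most other rows stay pale.

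Per length of annotated exon, the genes spanned a wide range. The length is that of all annotated exons of a gene together and not of a transcript, so the order depends in part on the annotation. Txn1, which encodes cytosolic thioredoxin, had the highest mean level over the 12 tumours at 193 RPKM (reads per kilobase of exon per M reads). Gpx1, Prdx1, Mgst1 and Taldo1 followed at 126, 121, 120 and 119 RPKM. The lowest were Slc7a11 at 0.289, Gstm1 at 1.36 and Sod3 at 1.44 RPKM. How reads that map to several places were counted is not stated by the labels or notes, so the levels of Txn1, Gpx1, Gpx4, Prdx1, Gstm1 and Gstp1, which have pseudogenes or near-identical relatives, are uncertain.

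The sensor and the factor came first in the pathway. Nfe2l2 was at 51.4, 40.5 and 51.6 CPM in p66Low parental, 48.9, 39.9 and 45.7 in p66High parental, 45.8, 55.1 and 52.1 in p66Low aggressive and 47.7, 46.7 and 47.9 CPM in the p66High aggressive group. Its groups overlapped in each comparison. Its log2 difference ranged from -0.11 to 0.09 over the 4 pairwise comparisons, with the widest 95% interval reaching from -0.36 to 0.15 in aggressive tumours. Keap1 was 75.6, 64.9 and 66 CPM in p66Low parental, 65.3, 70.5 and 68.7 in p66High parental, 70.3, 87.2 and 88.3 in p66Low aggressive and 66.6, 66.5 and 59.3 CPM in p66High aggressive tumours. All 3 p66High aggressive tumours lay below the 3 p66Low aggressive ones, though p66Low aggressive tumour 1 lay within the range of the parental tumours. Keap1 fell by 0.35 (log2, SE 0.10) in p66High against p66Low aggressive tumours (adjusted p = 0.0314 by edgeR). The call was lost in 7 of 23 alternative analyses (here and below, these 23 leave out the requirement of a minimum log2 change of 1, which a smaller change cannot pass), among them the omission of p66Low aggressive tumour 2 or 3, of any p66High aggressive tumour, or of the 3 lymph node libraries (log2 between -0.46 and -0.29, highest adjusted p 0.128). Keap1 shares 510 bases of exon with Gm16754 on the opposite strand, and the strand setting of the counting is not given.

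Nqo1 had the largest change of the 40. It encodes NAD(P)H quinone dehydrogenase 1, which reduces quinones without leaving a radical, and is among the most used readouts of NRF2 activity. The gene lies on mouse chromosome 8 (GRCm38, chr8:107388225-107403206, minus strand). It was at 16.6, 33.7 and 19.5 CPM in p66Low parental and at 17.3, 29.4 and 16.6 CPM in p66High parental tumours. It was at 2.14, 2.14 and 2.48 CPM in p66Low aggressive and at 1.32, 1.73 and 2.24 CPM in p66High aggressive tumours. All 6 aggressive tumours lay far below all 6 parental ones, and within each stage the p66High and p66Low tumours overlapped. The lowest raw count behind these values was 41 reads, well above the floor of 3 counts.

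Nqo1 fell by 3.36 (log2, SE 0.32, 10.3-fold) on selection of p66Low cells (adjusted p = 0.000176 by edgeR) and fell by 3.59 (SE 0.33, 12.1-fold) on selection of p66High cells (adjusted p = 0.000304). The 2 selections share no sample. The difference between the selections was -0.23 on the log2 scale, with a 95% interval from -1.18 to 0.72 and an adjusted p of 0.762. Among 14735 tested protein-coding genes, Nqo1 had the 23rd lowest log2 difference in p66Low and the 79th lowest in p66High cells. Both calls held in all 23 alternative analyses, with log2 differences between -3.54 and -2.98 in p66Low and between -3.81 and -3.29 in p66High cells. The 124 tested protein-coding genes within 5 Mb of Nqo1 had median log2 differences of 0.02 and -0.01, and 0 and 1 of them fell as far as Nqo1. The change was thus not shared by its chromosomal neighbours.

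**Figure D2:**
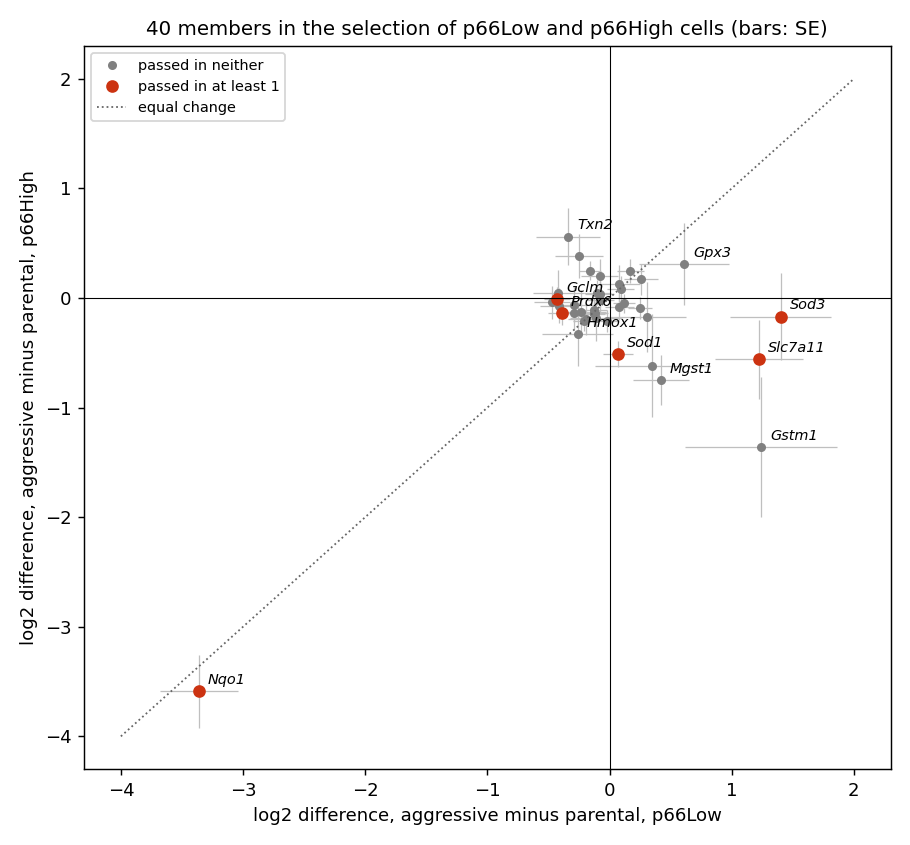
Log2 difference between aggressive and parental tumours for each of the 40 genes in p66Low cells (horizontal axis) and p66High cells (vertical axis), with SE bars and red points for genes that passed in at least 1. Nqo1 lies alone at the lower left, at -3.36 and -3.59, near the dotted line of equal change.

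The other quinone and haem enzyme of the list behaved differently. Hmox1, haem oxygenase 1, breaks down haem and is another standard NRF2 target. It lay between 13.6 and 40.1 CPM with overlapping groups, and its log2 differences were -0.26 in p66Low selection and -0.33 in p66High selection (adjusted p = 0.598 and 0.539). The 95% interval of the latter, from -0.96 to 0.30, does not reach the size of the Nqo1 change.

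Promoter sequence was read for the 33 of the 40 genes that had a RefSeq window (GRCm38.p6, 250 bases before to 50 after a start site). Hmox1, Gclc, Gsr, Msra, Gsta4, Sod3 and Prdx6 are named only. The core of the antioxidant response element, TGACNNNGC on either strand, occurred in a window of 9 of these 33 genes (27.3%), against 14% of the 27025 genes in the table. By window the shares were 20% of 45 windows and 12.4% of 32851. The 9 matches are shown because NRF2 is known to act through elements with this core. Whether it acts through these 9 was not tested. The core is in capitals, with 10 bases on each side, read 5′ to 3′ along the strand that carries it.
Nfe2l2 (chr2:75704885-75704913, minus strand): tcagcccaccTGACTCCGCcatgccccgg
Gclm (chr3:122245413-122245441, minus strand): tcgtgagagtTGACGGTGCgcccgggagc
Txnrd1 (chr10:82859104-82859132, minus strand): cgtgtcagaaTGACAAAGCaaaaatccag
Srxn1 (chr2:152105542-152105570, minus strand): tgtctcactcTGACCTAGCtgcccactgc
G6pdx (chrX:74428919-74428947, plus strand): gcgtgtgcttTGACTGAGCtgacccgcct
Pgd (chr4:149166061-149166089, minus strand): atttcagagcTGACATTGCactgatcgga
Mgst1 (chr6:138140461-138140489, minus strand): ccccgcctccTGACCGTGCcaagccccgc
Sod1 (chr16:90220696-90220724, minus strand): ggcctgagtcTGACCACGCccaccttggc
Prdx1 (chr4:116685456-116685484, minus strand): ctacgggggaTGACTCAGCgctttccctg
The Prdx1 match, TGACTCAGC, is the form in which the core also holds an AP-1 site (TGACTCA). Nqo1, the gene that moved most, had no match in its window. Its 250 bases before the start, with the single TGAC in capitals, are shown for comparison.
Nqo1 (chr8:107403206-107403455, minus strand): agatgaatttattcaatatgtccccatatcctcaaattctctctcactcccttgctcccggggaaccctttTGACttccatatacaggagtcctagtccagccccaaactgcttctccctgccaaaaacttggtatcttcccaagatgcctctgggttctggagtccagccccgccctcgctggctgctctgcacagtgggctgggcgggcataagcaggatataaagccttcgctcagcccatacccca
A match is a description of letters and not evidence of binding, and the absence of one says only that these letters are not in this window. Of the 9 genes with a match, Nfe2l2, Txnrd1, Srxn1, G6pdx and Prdx1 passed in no comparison, and Gclm, Pgd, Mgst1 and Sod1 passed in at least 1 of the 5 comparisons, the interaction included. Of all 40 genes, 14 passed in at least 1.

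Glutathione supply held 5 of the genes, and their changes pointed in different directions. Slc7a11 encodes the light chain of system xc-, which imports the cystine from which glutathione is made. Slc7a11 was at 3.67, 2.6 and 2.78 CPM in p66Low parental, 4.4, 2.39 and 3.92 in p66High parental, 9.38, 8.44 and 3.44 in p66Low aggressive and 2.33, 2.04 and 2.93 CPM in p66High aggressive tumours. Only p66Low aggressive tumours 1 and 2 stood apart, and p66Low aggressive tumour 3 lay within the range of the p66Low parental tumours. By edgeR, Slc7a11 rose by 1.22 (log2, SE 0.36, adjusted p = 0.0386) in p66Low selection and fell by 1.53 (SE 0.37, adjusted p = 0.0122) in p66High against p66Low aggressive tumours. The 2 high tumours are the ones with the most lymph node stroma markers, and the 14 T cell markers summed to 178 and 295 CPM in them, against 51.2 in p66Low aggressive tumour 3 and 4.81 to 6.01 CPM in p66Low parental tumours. Without the 3 lymph node libraries, a fit that leaves p66Low aggressive with 1 tumour assumed to vary like the others, the differences were 0.18 (adjusted p = 0.862) and -0.48 (adjusted p = 0.576). The p66Low selection call was also lost on omitting any p66Low parental tumour, p66Low aggressive tumour 1 or 2, p66High parental tumour 3 or p66High aggressive tumour 1 or 2, and passed in 12 of 23 alternatives.

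**Figure D3:**
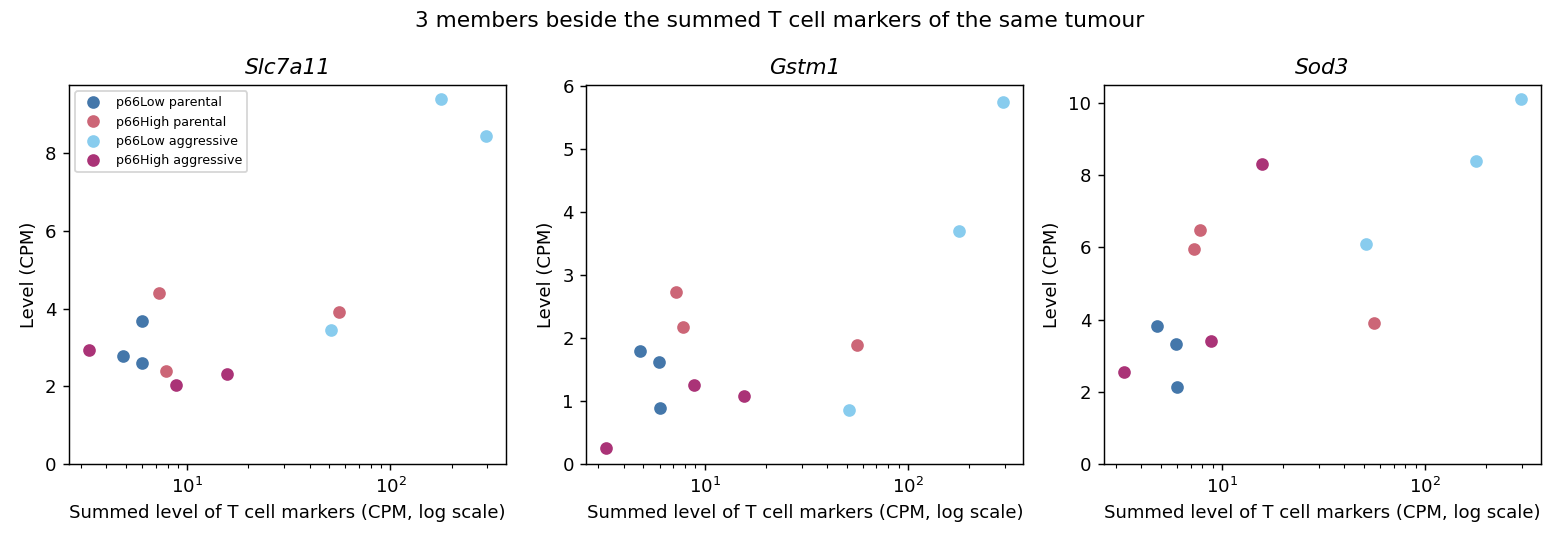
Level (CPM) of Slc7a11, Gstm1 and Sod3 in each of the 12 tumours against the summed level of 14 T cell markers in the same tumour (CPM, log scale), coloured by group. The highest point of each gene is a p66Low aggressive tumour with T cell markers at 178 or 295 CPM.

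Gclc and Gclm encode the catalytic and the modifier subunit of glutamate-cysteine ligase, the rate-limiting enzyme of glutathione synthesis. Gclc was at 50.8, 42.5 and 48.7 CPM in the p66Low parental group and at 38.2, 37.9 and 42 CPM in p66High parental tumours, and at 47.4, 52.7 and 53.7 CPM in p66Low aggressive and 39.3, 38.8 and 35.8 CPM in p66High aggressive tumours. At both stages every p66High tumour lay below every p66Low tumour, by a narrow margin in the parental ones. Gclc fell by 0.43 (log2, SE 0.09) in p66High against p66Low aggressive tumours (adjusted p = 0.0075 by edgeR), and the parental difference of -0.27 did not pass (adjusted p = 0.111). The aggressive difference without the 3 lymph node libraries was -0.48 with an adjusted p of 0.0881, the only one of 23 alternatives in which the call was lost.

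Gclm did not follow Gclc. It was at 278, 212 and 262 CPM in the p66Low parental tumours and at 200, 186 and 173 CPM in p66Low aggressive tumours, with no overlap, and at 198, 239 and 215 CPM in p66High parental and 222, 205 and 221 CPM in the p66High aggressive group. Gclm fell by 0.43 (log2, SE 0.11) in p66Low selection (adjusted p = 0.0239 by edgeR), and its difference between p66High and p66Low aggressive tumours was 0.22 (adjusted p = 0.205). The call was lost in 7 of 23 alternatives, among them scaling by library size alone and the omission of p66Low parental tumour 1 or 3, p66Low aggressive tumour 2 or 3 or the 3 lymph node libraries (log2 between -0.54 and -0.32, highest adjusted p 0.167). Gclm shares 296 bases of exon with Gm17494 on the opposite strand and 244 with Gm6061 on the same strand. Gss, glutathione synthetase, and Gsr, glutathione reductase, passed in no comparison, with log2 differences from -0.14 to -0.12 for Gss and from -0.12 to 0.25 for Gsr over the 4 pairwise comparisons.

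Among 8 genes of the thioredoxin and glutaredoxin systems 1 passed, in 1 comparison, that of p66High against p66Low aggressive tumours. There 21.0% of all tested genes passed, so the count is not read as low. Txn1 was at 243, 157 and 239 CPM in p66Low parental, 158, 152 and 174 in p66High parental, 256, 245 and 263 in p66Low aggressive and 186, 170 and 190 CPM in the p66High aggressive group. The p66High aggressive tumours all lay below the p66Low aggressive ones, and p66Low parental tumour 2 lay with the p66High parental tumours. Txn1 fell by 0.48 (log2, SE 0.14) in p66High against p66Low aggressive tumours (adjusted p = 0.0325 by edgeR), and the parental difference was -0.40 (adjusted p = 0.118). The aggressive call was lost in 8 of 23 alternatives, among them the omission of any 1 of the 6 aggressive tumours (log2 between -0.56 and -0.43, highest adjusted p 0.245).

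The thioredoxin partners were steadier. Txnrd1, cytosolic thioredoxin reductase and an NRF2 target, lay between 167 and 227 CPM, and its log2 differences ranged from -0.15 to 0.04 over the 4 pairwise comparisons. Srxn1, sulfiredoxin, which repairs overoxidised peroxiredoxins and is also an NRF2 target, lay between 11 and 23.1 CPM with log2 differences from -0.23 to -0.12. The mitochondrial pair Txn2 and Txnrd2 had parental p66High against p66Low differences of -0.78 (adjusted p = 0.102) and -0.53 (adjusted p = 0.0713), which did not pass by edgeR although their parental groups did not overlap. DESeq2 called both (adjusted p = 0.04 and 0.0253), and no other of the 23 alternatives did. Txn2 was at 21.8 CPM in p66High parental tumour 2 and between 48.2 and 84.9 CPM in the other 11 tumours. It lies on chromosome 15, where the 180 tested coding genes within 5 Mb had a median log2 difference of -0.43 in that comparison, with 46 passing as lower and 0 as higher. The glutaredoxins Glrx and Glrx2 and the methionine sulfoxide reductase Msra had log2 differences between -0.29 and 0.39 and passed in no comparison and no alternative.

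Pgd stood apart from the other genes of the pentose phosphate pathway, which makes NADPH for glutathione and thioredoxin reductases. Pgd encodes phosphogluconate dehydrogenase, the second NADPH-forming step. It was at 154, 156 and 153 CPM in p66Low parental, 69.2, 32.8 and 67.8 in p66High parental, 107, 118 and 120 in p66Low aggressive and 57.6, 58.1 and 60 CPM in p66High aggressive tumours. All 6 p66High tumours lay below all 6 p66Low tumours. Pgd fell by 1.44 (log2, SE 0.21, adjusted p = 0.00223 by edgeR) in p66High against p66Low parental tumours and fell by 0.98 (SE 0.21, adjusted p = 0.00762) in aggressive tumours. The parental call held in all 23 alternatives. The aggressive one was lost in 1 of them, at -1.02 with an adjusted p of 0.0806 without the 3 lymph node libraries.

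The chromosomal neighbours of Pgd were lower in the same tumours. Pgd lies on chromosome 4 (chr4:149149991-149166771). Of the 83 tested protein-coding genes within 5 Mb of it, 42 passed as lower and 1 as higher in p66High parental tumours, with a median log2 difference of -0.72, and 51 as lower and 2 as higher in aggressive tumours, with a median of -0.79. Over all tested coding genes the medians were 0.01 and -0.01. In the parental comparison 5 neighbours fell further than Pgd, and in the aggressive one 25 did, so Pgd was low within a stretch that was low. G6pdx, Tkt and Taldo1, which catalyse the first NADPH-forming step and the carbon exchanges of the pathway, lie on other chromosomes. None of them passed by edgeR on all 12 tumours, though G6pdx did in parental tumours without p66Low parental tumour 2 and Tkt did in p66Low selection by DESeq2. Their p66High against p66Low differences were -0.45, -0.15 and -0.07 in parental and -0.17, 0.28 and -0.08 in aggressive tumours.

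Of 4 glutathione transferases, which join glutathione to electrophiles, Gsta4 passed in a pairwise comparison. Gsta4, which acts on aldehydes formed by lipid peroxidation, was at 15.4, 17.4 and 27.3 CPM in p66Low aggressive and 30.8, 31.7 and 35.3 CPM in p66High aggressive tumours, and at 28.2, 21.6 and 22.3 CPM in the p66Low parental group and 22.7, 30.1 and 22.3 CPM in the p66High parental group. The p66Low aggressive tumours with the most lymph node markers were the low ones. Gsta4 rose by 0.69 (log2, SE 0.20) in p66High against p66Low aggressive tumours (adjusted p = 0.0319 by edgeR). The difference without the 3 lymph node libraries was 0.27 (adjusted p = 0.57), and the call was lost in 8 of 23 alternatives, among them the omission of p66Low aggressive tumour 1 or 2 or of any p66High aggressive tumour.

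Mgst1, a membrane-bound transferase with peroxidase activity, passed in the interaction and in no pairwise comparison. It was at 152, 270 and 183 CPM in p66Low parental, 292, 377 and 265 in p66High parental, 200, 270 and 341 in p66Low aggressive and 168, 203 and 185 CPM in p66High aggressive tumours. Its p66Low groups overlapped, and in p66High cells every aggressive tumour lay below every parental one. The log2 difference on selection was 0.42 (SE 0.23, adjusted p = 0.243) in p66Low and -0.75 (SE 0.23, adjusted p = 0.0816) in p66High cells. Gstm1 was between 0.259 and 5.74 CPM, with its highest values, 3.7 and 5.74 CPM, in p66Low aggressive tumours 1 and 2. Its aggressive p66High against p66Low difference was -1.95 (SE 0.65, adjusted p = 0.0514). Gstp1 differences of -0.40 and -0.34 between p66High and p66Low tumours did not pass by edgeR (adjusted p = 0.0765 and 0.0781), and DESeq2 called both. DESeq2 also called Gstm1 in aggressive tumours and Mgst1 in p66High selection.

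**Figure D4:**
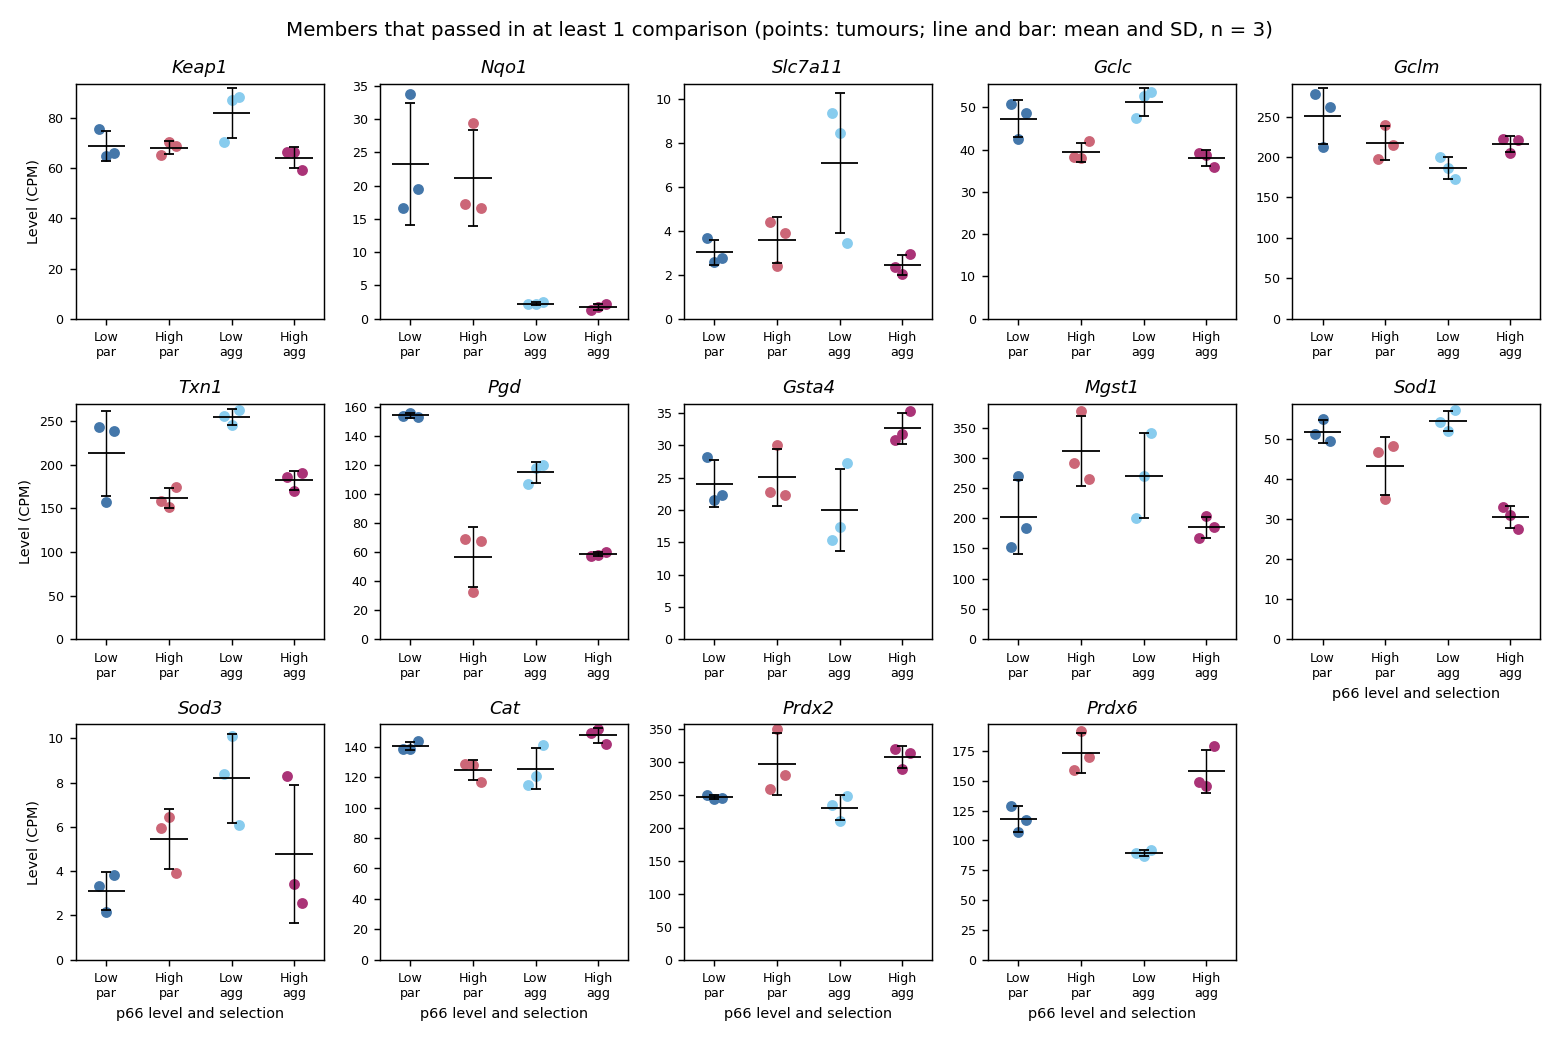
Level (CPM) in each tumour of the 14 genes that passed in at least 1 comparison, with the mean (line) and SD (bar, n = 3) of each group. Nqo1 separates parental from aggressive tumours, Pgd and Prdx6 separate p66Low from p66High tumours, and Sod1 is lowest in p66High aggressive tumours.

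The superoxide dismutases differ by compartment, and each had its own pattern. Sod1, the cytosolic copper-zinc enzyme, was at 51.1, 54.9 and 49.4 CPM in p66Low parental, 46.7, 35 and 48.1 in p66High parental, 54.2, 52 and 57.2 in p66Low aggressive and 32.9, 31.1 and 27.5 CPM in the p66High aggressive group. The 3 p66High aggressive tumours were the lowest of the 12. Sod1 fell by 0.83 (log2, SE 0.12, adjusted p = 0.00107 by edgeR) in p66High against p66Low aggressive tumours, a call that held in all 23 alternatives but is below a log2 change of 1. It fell by 0.51 (SE 0.12, adjusted p = 0.0329) on selection of p66High cells, and that call was lost in 8 of 23 alternatives, among them library size alone and the omission of p66High parental tumour 1 or 3, of any p66High aggressive tumour or of the lymph node libraries (log2 between -0.64 and -0.42, highest adjusted p 0.146).

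Sod1 also moved with its neighbours. It lies on chromosome 16 (chr16:90220754-90226329). Of 53 tested protein-coding genes within 5 Mb of it, 40 passed as lower and 0 as higher in p66High against p66Low aggressive tumours, with a median log2 difference of -0.80, and 37 as lower and 0 as higher on selection of p66High cells, also with a median of -0.80. In p66High against p66Low parental tumours the neighbours' median was 0.08, and in p66Low selection it was 0.01. Sod1 at -0.83 was thus close to the median of its neighbours in the first comparison, and in the selection of p66High cells 41 of 53 neighbours fell further than it did.

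Sod2, the mitochondrial manganese enzyme, was at 102, 88.5 and 87.8 CPM in p66Low parental, 97.7, 107 and 94.8 in p66High parental, 101, 84.8 and 89.7 in p66Low aggressive and 94.6, 85.7 and 78.7 CPM in the p66High aggressive group. The groups overlapped between p66High and p66Low tumours at both stages. The p66High against p66Low difference was 0.11 (95% interval from -0.12 to 0.33) in parental and -0.09 (from -0.31 to 0.14) in aggressive tumours, and Sod2 passed in no comparison. Cat, catalase of the peroxisome, was at 139, 139 and 144 CPM in p66Low parental, 129, 128 and 117 in p66High parental, 115, 121 and 141 in p66Low aggressive and 149, 152 and 142 CPM in the p66High aggressive group. The p66High tumours lay below the p66Low tumours before selection and above them after it, by -0.17 (adjusted p = 0.253) and 0.23 (adjusted p = 0.0773) on the log2 scale, and Cat passed in the interaction alone.

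Sod3, the extracellular enzyme, was at 3.32, 2.15 and 3.82 CPM in p66Low parental, 5.95, 6.47 and 3.9 in p66High parental, 8.39, 10.1 and 6.09 in p66Low aggressive and 8.32, 3.42 and 2.55 CPM in p66High aggressive tumours. Every p66Low aggressive tumour lay above every p66Low parental one, and the p66High groups overlapped. Sod3 rose by 1.4 (log2, SE 0.41) in p66Low selection (adjusted p = 0.0389 by edgeR). Without the 3 lymph node libraries the difference was 0.96 (adjusted p = 0.41), and omitting any p66Low parental tumour, p66High parental tumour 1 or p66Low aggressive tumour 1 or 2 also ended the call. The 12 fibroblast markers summed to between 2070 and 6630 CPM in p66Low aggressive and between 2600 and 3230 CPM in p66Low parental tumours, and the 15 adipocyte markers to between 93.1 and 741 CPM and between 63.4 and 367 CPM. Their part in the Sod3 difference was not tested.

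None of the 5 glutathione peroxidases passed in any comparison by edgeR, DESeq2 or limma-voom. At an unadjusted p under 0.05 in edgeR 1 did in 1 comparison, Gpx3 between p66High and p66Low aggressive tumours. Over all tested genes between 5.94% and 21.0% passed by edgeR in the 5 comparisons, so with 5 genes this count is not read as low. Gpx1, the main cytosolic form, lay between 160 and 226 CPM, and Gpx4, which reduces lipid peroxides in membranes, between 26.8 and 54.3 CPM. Their log2 differences ran from -0.14 to -0.12 and from -0.18 to 0.19 over the 4 pairwise comparisons. The secreted form Gpx3 and the endoplasmic reticulum forms Gpx7 and Gpx8 were at low levels, between 1.29 and 11.4 CPM, with larger spreads. Their differences reached -0.87 for Gpx3 in aggressive and 0.80 for Gpx7 in parental tumours between p66High and p66Low (adjusted p = 0.122 and 0.34), and depth and spread set a limit to what could be seen in them.

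The peroxiredoxins were 6 genes, of which Prdx6 changed in 3 comparisons. Prdx6 encodes the peroxiredoxin with a single active cysteine, which uses glutathione and also has phospholipase activity. It was at 129, 107 and 117 CPM in p66Low parental, 159, 192 and 170 in p66High parental, 89.5, 87.1 and 92.3 in p66Low aggressive and 149, 146 and 179 CPM in p66High aggressive tumours. All 6 p66High tumours lay above all 6 p66Low tumours, and the p66Low aggressive tumours were the lowest. By edgeR, Prdx6 rose by 0.56 (log2, SE 0.11, adjusted p = 0.00819) in p66High against p66Low parental and by 0.82 (SE 0.11, adjusted p = 0.000643) in aggressive tumours, and fell by 0.39 (SE 0.11, adjusted p = 0.0287) in p66Low selection. The aggressive call held in all 23 alternatives, and it too is below a log2 change of 1. The parental one was lost without the 3 lymph node libraries (0.59, adjusted p = 0.0545), and the selection one in 6 alternatives, among them library size alone, the lymph node libraries and the omission of p66Low parental tumour 1 or 3 or p66Low aggressive tumour 1 or 2 (log2 between -0.44 and -0.29).

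Prdx6 lies on chromosome 1 (chr1:161240112-161251219), and its neighbours were higher in p66High parental tumours too. Of 63 tested coding genes within 5 Mb, 22 passed as higher and 0 as lower there, with a median log2 difference of 0.59, just above that of Prdx6. In aggressive tumours 23 neighbours passed as higher and 12 as lower with a median of 0.33, and 3 were further above 0 than Prdx6. In p66Low selection the median was 0.09, against -0.39 for Prdx6.

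**Figure D5:**
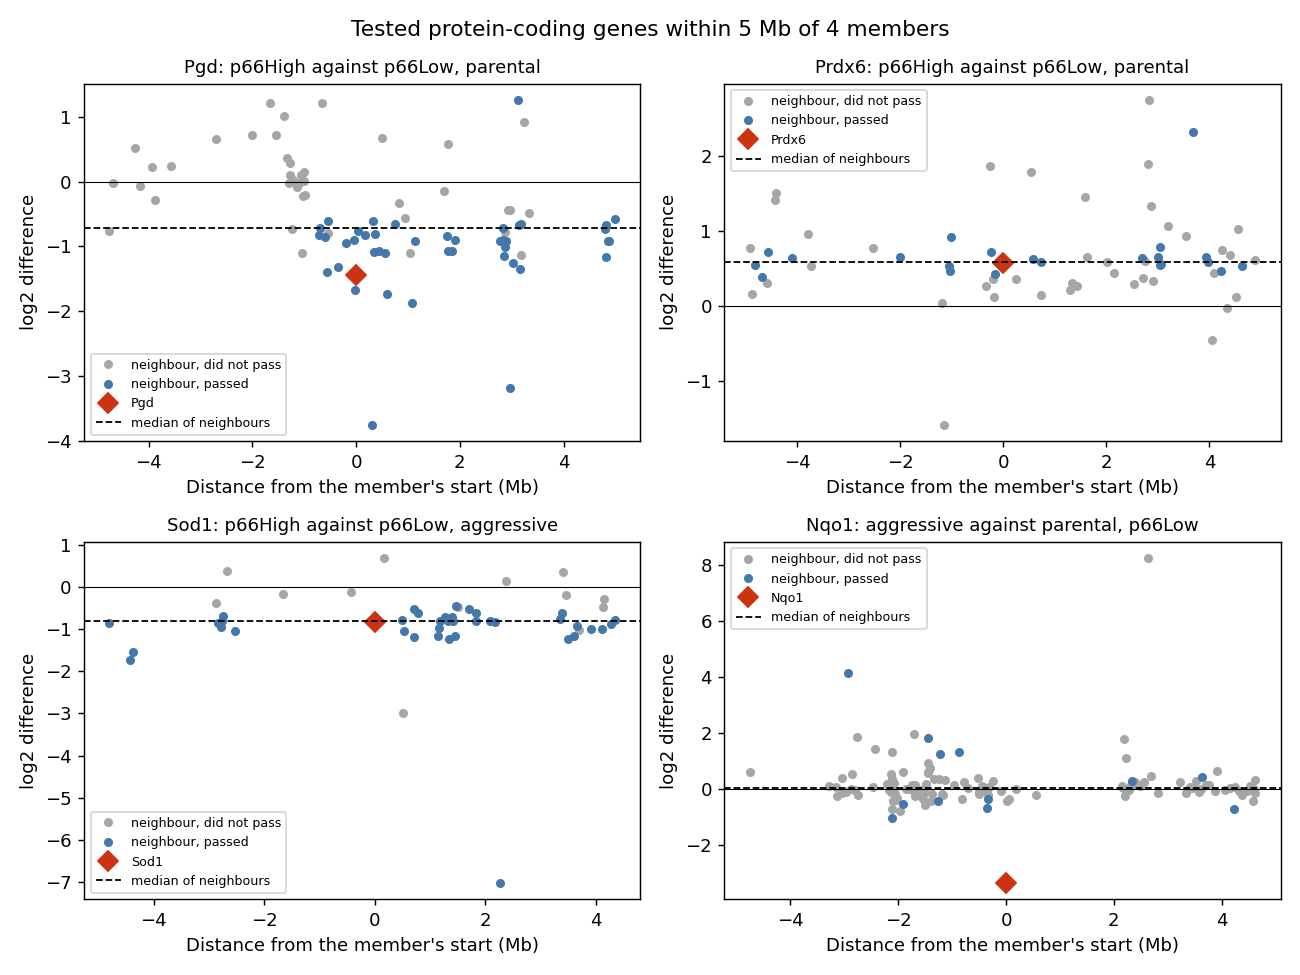
Log2 difference of the tested protein-coding genes within 5 Mb of Pgd, Prdx6, Sod1 and Nqo1, by distance from the start of that gene (Mb), with blue for genes that passed. Pgd, Prdx6 and Sod1 (red) lie among neighbours shifted the same way (dashed medians at -0.72, 0.59 and -0.80), and Nqo1 lies at -3.36 under neighbours with a median of 0.02.

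Prdx2, an abundant cytosolic peroxiredoxin of red cells and other tissues, was at 234, 210 and 248 CPM in p66Low aggressive and 320, 289 and 313 CPM in p66High aggressive tumours, and at 250, 244 and 246 CPM in the p66Low parental group and 259, 350 and 281 CPM in the p66High parental group. The aggressive groups did not overlap. Prdx2 rose by 0.41 (log2, SE 0.11) in p66High against p66Low aggressive tumours (adjusted p = 0.0223 by edgeR). The call was lost in 5 of 23 alternatives, with p66Low aggressive tumour 1 or 2, p66High aggressive tumour 1 or 3 or the lymph node libraries left out (log2 between 0.33 and 0.48, highest adjusted p 0.363). The 8 erythroid markers summed to between 69.8 and 116 CPM in p66Low aggressive and between 117 and 171 CPM in p66High aggressive tumours, and their part was not tested. Prdx2 shares 173 and 177 bases of exon with Junb and Rnaseh2a on the opposite strand. Prdx1, Prdx3, Prdx4 and Prdx5 passed in no comparison by edgeR, and Prdx1, with a core match in its promoter, had log2 differences from -0.15 to -0.03. Prdx5, at -0.50 in p66High against p66Low parental tumours, was called there by DESeq2, with numbered tumours summed and without p66High parental tumour 2 (lowest adjusted p 0.0186).

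The groups of these genes did not overlap for 12 of 40 between p66High and p66Low parental tumours (29.9% of all tested genes), 17 of 40 in aggressive tumours (38.2%), 9 of 40 in p66Low selection (32.8%) and 15 of 40 in p66High selection (32.6%). Those shares are near the background in the first, second and last, and below it in p66Low selection. In the interaction, 1 gene passed as higher and 3 as lower. Slc7a11 (-1.78), Mgst1 (-1.17) and Sod1 (-0.58) changed less upward or more downward in p66High than in p66Low cells on the log2 scale, and Cat (0.41) the other way. Over 200 pairs of a gene and a comparison, 22 passed, which are the counts set beside the shares of all genes above. Of these, 5 passed in all 23 alternatives: Nqo1 in both selections, Pgd in parental tumours, and Sod1 and Prdx6 in aggressive tumours. Nqo1 and Pgd also passed with a minimum log2 change of 1, and Sod1 and Prdx6 did not. No pair that passed changed sign in any alternative.

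Further NRF2 regulators and targets were taken from a list of 32 genes, of which 30 were tested. Between p66High and p66Low parental tumours 2 rose and 1 fell, against 3.98% and 4.10% of all tested genes. Akr1b8, an aldo-keto reductase, was at 44.5, 25.2 and 31.4 CPM in the p66Low parental group and at 5.1, 5.14 and 4.86 CPM in p66High parental tumours. It fell by 2.75 (log2, SE 0.22, adjusted p = 0.000124 by edgeR). Cul3, the scaffold of the KEAP1 ubiquitin ligase, rose by 0.47 (adjusted p = 0.00385), and Idh1, a cytosolic source of NADPH, rose by 0.69 (adjusted p = 0.0117), a call lost without p66Low parental tumour 1 or 3 (highest adjusted p 0.0525). Cul3 and Idh1 lie on chromosome 1, as does Prdx6, whose neighbours were higher in p66High parental tumours. Their starts, at 80264923 and 65158616, are far outside the 5 Mb around Prdx6 (start 161240112). The neighbours of Cul3 and Idh1 were not examined. In aggressive tumours 4 of 30 were higher and 5 lower in p66High, against 8.92% and 12.1% of all genes. Akr1b8 fell by 1.72 there (adjusted p = 0.000402), with 37, 35.8 and 46.7 CPM in p66Low aggressive and 11.9, 14.6 and 9.92 CPM in p66High aggressive tumours.

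Ephx1, the microsomal epoxide hydrolase, was the NRF2-linked gene of that list with the smallest p in p66Low selection. It was at 92.8, 132 and 94 CPM in p66Low parental, 135, 129 and 112 in p66High parental, 12.8, 20.9 and 14.1 in p66Low aggressive and 118, 95.9 and 108 CPM in p66High aggressive tumours. Only the p66Low aggressive tumours were low. Ephx1 also lies on chromosome 1 (start 180976210), outside the 5 Mb around Prdx6, and its neighbours were not examined. Ephx1 fell by 2.73 (log2, SE 0.20, adjusted p = 4.12e-05 by edgeR) in p66Low selection, where 1 of 30 genes rose and 4 fell (9.60% and 7.03% of all genes), and its interaction was 2.50 (SE 0.27, adjusted p = 0.00103). So Nqo1 fell in both selections and Ephx1 in p66Low cells, with a tested difference between selections for Ephx1. Bach1, a repressor that competes with NRF2 at its elements, fell by 1.05 in p66High against p66Low aggressive tumours (adjusted p = 0.000317) and by 0.75 in p66High selection (adjusted p = 0.00473). It lies within 5 Mb of Sod1 on chromosome 16. The calls of Ephx1 and Bach1 in these comparisons held in all the alternatives run for them.

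In p66High selection 2 of the 30 rose and 2 fell (3.11% and 2.82% of all genes), Akr1b8 rising by 1.27 (adjusted p = 0.00558) and Ugdh, UDP-glucose dehydrogenase, by 0.96 (adjusted p = 0.0155). The Akr1b8 call was lost with numbered tumours summed (adjusted p = 0.0637). The Ugdh call was lost in 6 of 23 alternatives, namely that one and the omission of the 3 lymph node libraries, of p66High parental tumour 2 or 3 or of p66High aggressive tumour 2 or 3 (highest adjusted p 0.0826). Of 29 tested further genes of glutathione synthesis, use and transport, 1 rose and 0 fell in p66High against p66Low parental tumours, 2 rose and 1 fell in aggressive tumours, 1 rose and 6 fell in p66Low selection and 0 rose and 2 fell in p66High selection. Over all genes 8.08%, 21.0%, 16.6% and 5.94% passed in these comparisons. In p66Low selection 9.60% of all genes passed as higher and 7.03% as lower. The 3 genes of this list with the smallest p there were Gstt1 (1.48), Gsta3 (-2.06) and Ggt1 (-0.99). They were at 1.59, -1.39 and -1.24 without the 3 lymph node libraries, a fit with 1 p66Low aggressive tumour. Gstt1, a theta-class transferase, was the 1 that rose in parental tumours, from 2.84, 2.68 and 2.63 CPM in p66Low to 15.9, 21.3 and 13.9 CPM in p66High tumours (log2 2.65, adjusted p = 0.000139). Ggt1, which breaks down extracellular glutathione, fell by 2.70 in p66High selection (adjusted p = 0.000303), from 13.2, 21.9 and 25.6 CPM to 3.1, 3.22 and 3.02 CPM, and fell by 0.99 in p66Low selection (adjusted p = 0.0136). The latter call was lost without the 3 lymph node libraries (-1.24, adjusted p = 0.0635) or without p66Low aggressive tumour 1.

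Of 21 further genes of the thioredoxin system and methionine repair, 1 rose and 1 fell in p66High against p66Low parental tumours, and 3 rose and 1 fell in aggressive tumours (8.08% and 21.0% of all genes passed). Park7, or DJ-1, which protects against oxidative stress and lies within 5 Mb of Pgd on chromosome 4, fell by 0.84 (adjusted p = 0.00119) and by 0.68 (adjusted p = 0.0017). Sesn2, a sestrin of the stress response, rose by 1.07 in p66High against p66Low aggressive tumours (adjusted p = 0.000644 by edgeR). It fell by 0.95 in p66Low selection (adjusted p = 0.00187), where 0 of the 21 rose and 3 fell (9.60% and 7.03% of all genes). With the lymph node libraries left out, a fit with 1 p66Low aggressive tumour, Sesn2 was at -0.71 in p66Low selection and its call was lost. Fewer of all tested genes passed in that fit too. Of 20 genes of NADPH and superoxide handling, 2 rose and 0 fell in parental and 1 rose and 4 fell in aggressive p66High against p66Low tumours, against the same shares of all genes as above. Rpe, the epimerase of the pentose phosphate pathway, rose in both, by 0.56 (adjusted p = 0.00482) and 0.69 (adjusted p = 0.000899). The latter call was lost with the lymph node libraries left out (0.53), a fit with 1 p66Low aggressive tumour. Rpe too lies on chromosome 1 (start 66700831), far outside the 5 Mb around Prdx6, and its neighbours were not examined. H6pd, the endoplasmic reticulum enzyme that makes NADPH from hexose phosphate, rose by 1.44 in p66Low selection (adjusted p = 0.00254), the 1 gene of the 20 that passed there.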

How the data were processed

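The deposited values are raw read counts per gene for 12 tumours. Libraries were stranded and made from total RNA after removal of rRNA, per the labels' protocols. The submitters' processing notes name the mm10 build, featureCounts 1.4.4, STAR 2.3.0e and Trimmomatic 0.32. The sources used here do not give the annotation, the strand setting or the treatment of multi-mapping reads.

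Counts were scaled by TMM, filtered with filterByExpr (19370 of 39017 genes kept) and fitted with edgeR 4.0.16 in R 4.3.3 (glmQLFit, glmQLFTest, 4 groups, 8 residual degrees of freedom), with Benjamini-Hochberg adjustment over all tested genes. SE is the log2 difference divided by the root of F, and intervals are 95%. All libraries of a group differed by more than sampling noise (lowest chi-square per degree of freedom 20.6). A count of 3 was worth 0.0394 to 0.156 CPM, which covers counting error only. On counts simulated for the parental p66High against p66Low comparison (19078 genes), 34.3% of genes changed 1.5-fold, 67.2% changed 2-fold and 95.5% changed 4-fold were recovered. The changed genes, 66 or 67 at each fold, were drawn from genes above a minimum mean count. The simulated spread followed the trend with level and was not set gene by gene, so these shares do not hold for low or noisy genes. Positions and exon lengths came from GENCODE M21 (37607 genes matched, 96.4%). Promoter windows came from RefSeq (GRCm38.p6). Alternatives were other scalings (RLE, upper quartile, library size), other filters, a robust fit, DESeq2 1.42.0, limma-voom (limma 3.58.1), a minimum log2 change of 1, fits on the 6 tumours compared, tumours with the same label number summed, and omission of each tumour or of the lymph node libraries. The genes, lists, tests and alternatives were chosen with earlier results of these data known. Genes given by their value in every tumour are those that passed in a comparison, with Nfe2l2, Keap1, Sod2 and Cat always given. Of each further list, genes were named from up to 3 with the smallest p per comparison.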

Additional observations from a re-analysis of the deposited data

Results flagged for a closer look

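In 4 genes the change on selection differed between p66High and p66Low cells by the interaction term of edgeR's quasi-likelihood test. For Slc7a11 the difference was -1.78 (log2, SE 0.51, adjusted p = 0.0429), with selection changes of 1.22 in p66Low and -0.56 in p66High cells. It was -0.67 (adjusted p = 0.553) without the 3 lymph node libraries, and 9 of 22 alternatives kept the call.

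For Mgst1 the difference was -1.17 (SE 0.33, adjusted p = 0.0388), and 11 of 22 alternatives kept the call. For Sod1 it was -0.58 (SE 0.17, adjusted p = 0.048), against a median of -0.77 over its 53 chromosomal neighbours, and 9 of 22 alternatives kept it. For Cat it was 0.41 (SE 0.12, adjusted p = 0.0495), and 5 of 22 alternatives kept it, RLE and library-size scaling being among those that did not. With the 3 lymph node libraries left out, Mgst1 was at -1.61 (adjusted p = 0.0588), Sod1 at -0.56 (adjusted p = 0.257) and Cat at 0.21 (adjusted p = 0.514). All 4 calls were lost on omitting, 1 at a time, p66Low parental tumour 1 or 3, p66High parental tumour 1, p66Low aggressive tumour 2 or p66High aggressive tumour 1, 2 or 3, with log2 values from -2.11 to -0.67 for Slc7a11, from -1.61 to -0.96 for Mgst1, from -0.73 to -0.52 for Sod1 and from 0.21 to 0.51 for Cat over all alternatives. No explanation was tested.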

How the results depend on the processing

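Of 22 pairs of a gene and a comparison that passed, none changed sign in 23 alternatives, which leave out the minimum log2 change of 1, and 5 passed in all 23. With that minimum, Sod1 and Prdx6 in aggressive tumours, both among the 5, did not pass. Of 178 pairs that did not pass, 26 passed in at least 1 alternative and 152 in none. Depth limits the low genes, such as Slc7a11, Gstm1, Sod3 and Gpx7. No paired analysis was possible because the labels give the groups no shared replicate numbers. Scaling by library size alone shifted the median of all genes by 0.11 in p66Low selection and by -0.11 in the interaction, and moved the share of higher genes among those called from 57.7% to 73.6% and from 35.4% to 23.3%. No direction of a gene that passed changed with it.

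The counts of the 40 genes called moved as follows, and the cause was not tested beyond the fewer samples or stricter criterion. In p66High against p66Low parental tumours 2 became 6 with DESeq2 and 1 with a minimum fold change or without the 3 lymph node libraries, and ran from 2 to 7 with 1 tumour left out, 7 being without p66Low parental tumour 2. In aggressive tumours 9 became 1 with a minimum fold change and 2 without the lymph node libraries, and 5 to 10 with 1 tumour left out, 5 being without p66Low aggressive tumour 2 or p66High aggressive tumour 3. In p66Low selection 5 became 3 with a minimum fold change and 1 without the lymph node libraries, and 1 to 7 with 1 tumour left out, 1 being without p66Low parental tumour 1 or 3 or p66Low aggressive tumour 2, and 3 without p66Low aggressive tumour 1. In p66High selection 2 became 1 with library size alone, a minimum fold change or without the lymph node libraries, and 1 to 3 with 1 tumour left out, 1 without any tumour of the comparison other than p66High parental tumour 2. In the interaction 4 became 2 without a filter or with a minimum fold change, 1 with limma-voom or with numbered tumours summed and 0 without the lymph node libraries, and 0 to 5 with 1 tumour left out.

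Over all tested genes, the counts called were 1565, 4077, 3221, 1150 and 2395 in the same order. The first became 2486 with DESeq2, 614 with a minimum fold change, 908 with numbered tumours summed, 838 without the lymph node libraries and 871 to 1927 with 1 tumour left out. The second became 1976 with a minimum fold change, 1075 without the lymph node libraries and 2438 to 4502 with 1 tumour left out. The next became 1723 with a minimum fold change, 2128 on the 6 tumours compared, 705 without the lymph node libraries and 1545 to 3505 with 1 tumour left out. The p66High selection count became 2192 with DESeq2, 642 with a minimum fold change, 305 with numbered tumours summed, 586 without the lymph node libraries and 457 to 1469 with 1 tumour left out. The interaction count became 1179 with numbered tumours summed, 335 without the lymph node libraries and 1179 to 3278 with 1 tumour left out, the lowest being without p66Low parental tumour 3.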

Other observations

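Genes that make reactive oxygen species were counted from a list of 28, of which 24 were tested. In p66Low selection 9 rose and 4 fell, against 9.60% and 7.03% of all tested genes. The genes with the smallest p were Ncf4 and Cyba, subunits of the phagocyte NADPH oxidase, and Gpd2, the mitochondrial glycerol phosphate dehydrogenase. Ncf4 rose by 1.52 (log2, SE 0.23, adjusted p = 0.0019 by edgeR), Cyba by 1.41 (SE 0.24, adjusted p = 0.00325) and Gpd2 by 0.51 (SE 0.09, adjusted p = 0.00325). Cyba was at 12.1, 11.9 and 12.5 CPM in the p66Low parental tumours and at 31.4, 41.8 and 23.3 CPM in p66Low aggressive tumours, with the 2 lymph node libraries highest. In p66High against p66Low aggressive tumours 0 rose and 6 fell (8.92% and 12.1% of all genes), among them Cybb, the catalytic subunit, by 1.81 (SE 0.29, adjusted p = 0.00161), from 68.4, 87.6 and 65.6 CPM to 27.9, 24.6 and 10.7 CPM. Rac2, a GTPase of blood cells that activates the oxidase, fell by 2.86 there (SE 0.50, adjusted p = 0.00258). The 12 macrophage markers summed to between 471 and 697 CPM in p66Low aggressive, 315 and 350 CPM in the p66Low parental group and 200 and 387 CPM in p66High aggressive tumours, and the T cell markers were highest in p66Low aggressive tumours too. Their part in these differences was not tested. Without the 3 lymph node libraries, a fit with 1 p66Low aggressive tumour, Ncf4, Cyba and Gpd2 were at 0.98, 0.94 and 0.55 in p66Low selection. Between the aggressive groups Cybb was at -1.62 and Rac2 at -1.17. Fewer genes of this list passed in that fit, and fewer of all tested genes did too.

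Of 18 genes of the p66ShcA route to mitochondria and of the FOXO factors, 3 rose and 0 fell in p66High against p66Low parental tumours, and 6 rose and 2 fell in aggressive tumours, where 8.08% and 21.0% of all genes passed. The list holds Shc1 itself, which the p66High cells overexpress. Timm17a, a subunit of the mitochondrial inner membrane translocase, rose by 0.58 (SE 0.12, adjusted p = 0.0108 by edgeR) and 0.80 (SE 0.12, adjusted p = 0.0011). Ppargc1a, a coactivator of mitochondrial biogenesis, rose by 0.73 (SE 0.20, adjusted p = 0.0482) and 1.16 (SE 0.21, adjusted p = 0.00283). Timm17a was between 63.1 and 83.5 CPM in the p66Low parental group and between 103 and 119 CPM in p66High parental tumours. It lies on chromosome 1, as does Prdx6, whose neighbours were higher in p66High parental tumours. Its start, at 135295213, is outside the 5 Mb around Prdx6 (start 161240112). The neighbours of Timm17a were not examined. The parental call of Ppargc1a was kept in 10 of 23 alternatives. Without the 3 lymph node libraries, p66Low aggressive was left with 1 tumour, and the parental call of Ppargc1a was lost (0.67). In aggressive tumours the calls of this list were lost, that of the overexpressed Shc1 included. There Shc1 was at 2.6, Timm17a at 0.72 and Ppargc1a at 0.98. What the loss of these calls reflects was not tested.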
